A study of Arabidopsis thaliana with 32 samples.

Results

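Sorbitol was the osmoticum followed here, at 50, 100 and 150 mM, in the roots of 16-day-old *Arabidopsis thaliana* plants of the cultivar Columbia-0. The arrays labelled with sorbitol at these doses number 6, with 2 at each dose, and together with the 2 control arrays they make up 8 of the 32 arrays of the series. The plants had germinated on agar plates and then grown in a hydroponic nutrient solution, and their roots were collected 15 min after transfer. Control plants were transferred to the same solution with nothing added, and sorbitol plants to that solution with 50, 100 or 150 mM sorbitol. Whole roots were profiled, so fewer cells of a type and less RNA per cell cannot be told apart. Each group has 1 array with a title number from 17 to 32 and 1 from 33 to 48, called the first and the second run below, and the labels do not say what separates these runs or whether both arrays in a group stand for different plants. The main p-values therefore cover only the spread within groups that is left once a shift shared by each run is removed. That spread may be technical in part, and the number of arrays limits the precision. The series also holds NaCl, polyethylene glycol and ethylene glycol arrays, which entered the fit as groups of their own. The spread was thus taken over all 32 arrays, most of them with other solutes.

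Sorbitol is a sugar alcohol that crosses plant membranes slowly. When it is added outside a root, water leaves the cells, turgor (the pressure of the protoplast on the wall) drops, and the plasma membrane relaxes from the wall. Hyperosmotic shock is known to raise cytosolic calcium within seconds, and calcium sensors such as EF-hand and calmodulin-like proteins, protein kinases and zinc finger repressors take part in the earliest transcriptional response. Genes of slower osmotic acclimation, such as those induced by abscisic acid, usually follow later.

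Expression is given as deposited log2 values, for which a difference of 1 is a 2-fold difference. The arrays of 1 run correlated with each other at 0.989 to 0.991 across genes, and arrays of different runs at 0.968 to 0.975, and the run was kept as a block in each comparison. Genes are "called" at a limma p-value of 0.05 after Benjamini-Hochberg adjustment over the 28285 genes tested, 16554 of which have a name. Of 9 listed root hair markers 2 were measured, the expansins EXPA7, at 6.95 to 8.02 over the 8 arrays, and EXPA18, at 5.90 to 6.86, both above the median control level of all genes (4.21). Of 7 listed green tissue markers 2 were measured and lay below it, LHCB4.2, a light-harvesting protein, at 2.44 to 3.16 and RCA, rubisco activase, at 3.27 to 3.73. None of the listed markers of endodermis, stele or root cap was measured under its own name.

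The number of called genes grew with dose. At 50 mM sorbitol 1 gene was higher than in the control and 0 were lower (0.00354% of all genes tested, with 2243 genes at an unadjusted p under 0.05). At 100 mM 4 genes were higher and 4 lower (0.0283%, or 0.0141% in each direction, with 2151 genes at an unadjusted p under 0.05). At 150 mM 91 genes were higher and 39 lower (0.46%, or 0.322% higher and 0.138% lower, with 2507 genes at an unadjusted p under 0.05). The unadjusted counts thus did not grow from 50 to 100 mM and differed far less between doses than the calls did. The 3 comparisons share the same 2 control arrays and are therefore not independent. Without the run as a block, the limma counts were 0, 0 and 3 genes at 50, 100 and 150 mM, while 741, 763 and 826 genes had an unadjusted p under 0.05. Nearly all of these calls therefore hold only for the difference within runs. With the block kept but only the 2 compared groups fitted, the limma counts were also 0, 0 and 3 genes. With so few arrays such a fit can call few genes, so its counts cannot show how far the calls rest on the other groups. Without the second-run control array, 23 genes were called at 150 mM, without the first-run 150 mM array 43, and without the second-run 150 mM array 79.

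**Figure D1:**
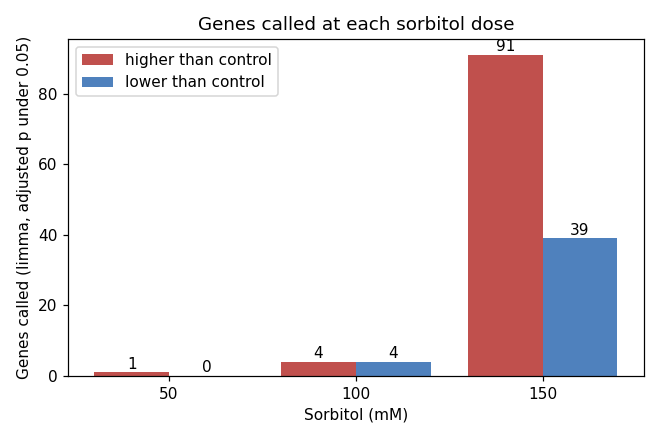
Number of genes called higher (red) and lower (blue) than the control by limma at each sorbitol dose in mM. The bars stand at 1 higher and 0 lower gene for 50 mM, 4 of each for 100 mM, and 91 higher and 39 lower genes for 150 mM.

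The gene called at 50 mM was AGL79, a MADS-box transcription factor. It measured 4.77 in control, 5.59 at 50 mM, 5.29 at 100 mM and 5.43 at 150 mM in the second run, and 6.59, 7.42, 7.12 and 7.24 in the first. In each run all 3 doses lay above that run's control, the lowest dose lay highest, and the runs were further apart than the doses. The change at 50 mM was 0.82 (adjusted p = 0.0407, limma), and this call was lost when any 1 of the 4 arrays compared was left out (adjusted p = 0.137 to 0.231).

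At 100 mM the called genes with a name were AT3G29000, AT4G18250 and AT1G76240, and the other 5 were probe sets with no gene name. AT4G18250, a receptor-like serine/threonine kinase, measured 6.12 in control, 6.48 at 50 mM, 6.77 at 100 mM and 6.88 at 150 mM in the first run, and 4.99, 5.62, 6.03 and 6.01 in the second. It exceeded its run's control at every dose, by 0.85 at 100 mM (adjusted p = 0.00881, limma) and 0.89 at 150 mM (adjusted p = 0.000895). AT3G29000 rose at 100 mM by 0.99 ± 0.17 (SE, adjusted p = 0.0143), and AT1G76240 fell by 1.39 ± 0.19 (SE, adjusted p = 0.0026). Each of these 3 calls was lost on leaving out the second-run control array, and that of AT3G29000 on leaving out any 1 of the 4 arrays.

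The trend over dose was fitted as a slope over 0, 50, 100 and 150 mM, in log2 units per 100 mM. The slope was positive for 97 called genes and negative for 38 (0.477% of all genes, or 0.343% and 0.134%), and 48 and 20 of these have a name. Fitted on the 8 sorbitol and control arrays alone, with the block kept, the slope called 151 genes, 107 positive and 44 negative. Without the run as a block the slope called 3 genes, all positive and all among the 97: DLAH, AT1G35210 and a probe set with no gene name. Without the second-run control array it called 30 genes, and without the first-run or the second-run 150 mM array 44 and 67.

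The steepest called rise was that of AT3G29000, which encodes a calcium-binding EF-hand protein. It measured 6.31 in control, 6.68 at 50 mM, 7.11 at 100 mM and 8.48 at 150 mM in the first run, and 5.16, 5.26, 6.35 and 7.53 in the second. It rose at every step in both runs, and both 150 mM arrays lay above both control arrays. The slope was 1.51 ± 0.11 per 100 mM (SE, adjusted p = 2.1e-09, limma), and the change at 150 mM was 2.27 ± 0.17, or 4.82-fold (adjusted p = 7.22e-09). The calls of its slope and of its 150 mM change held with any 1 array left out, and without the block the slope's adjusted p was 0.822.

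The calmodulin-like protein gene CML37, another calcium sensor, rose by 0.60 ± 0.14 per 100 mM (SE, adjusted p = 0.0413, limma). It measured 3.46, 3.46, 3.94 and 4.52 from control to 150 mM in the first run, and 3.26, 3.64, 3.64 and 4.04 in the second. Its 150 mM arrays lay above both controls, but leaving out 1 array ended the call in 7 of 8 cases. Of the 18 calcium sensor genes listed, 9 were measured and 2 rose with dose, with 0 falling (0.343% of all genes rose). The median slope of the 9 was 0.126, with a range of -0.09 to 1.51, against 0.002 for all genes. This list, like the others below, was chosen with earlier results of these data known, so these counts and medians carry no test. Among the 7 that were not called, CML38 measured 6.94 in control and 6.35 at 150 mM in the first run, and 5.51 and 5.42 in the second. AT4G27280, also an EF-hand protein gene but not on the list and picked out after its values were seen, rose by 0.54 ± 0.10 per 100 mM (SE, adjusted p = 0.00521).

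VQ-motif proteins are small nuclear proteins, many of which bind WRKY transcription factors. AT2G22880 measured 5.24, 5.35, 5.40 and 6.57 from control to 150 mM in the first run, and 3.93, 4.39, 4.72 and 5.63 in the second. It rose at every step in both runs, with a slope of 0.95 ± 0.15 per 100 mM (SE, adjusted p = 0.0011, limma). AT1G17147 measured 4.04, 4.38, 4.11 and 4.86 in the first run and 3.07, 3.68, 3.69 and 4.08 in the second, with a slope of 0.52 (adjusted p = 0.024). Of 13 VQ genes listed, 6 were measured, all 6 had a positive slope and 2 were called, and their median slope was 0.379. Of all 28285 genes 14306 had a positive slope and 0.343% rose. The VQ list too was chosen with earlier results known, so its counts carry no test. Of 21 listed WRKY genes, 4 were measured and 0 called, with slopes of 0.29 for WRKY41, 0.17 for WRKY22, 0.06 for WRKY29 and 0.02 for WRKY6.

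STZ, also called ZAT10, is a zinc finger repressor of stress-responsive genes. It measured 9.32, 9.05, 9.34 and 9.71 from control to 150 mM in the first run, and 8.40, 8.46, 8.66 and 9.41 in the second. The 150 mM arrays were the highest of each run, while the 50 mM array of the first run lay below its control. The slope was 0.47 ± 0.08 per 100 mM (SE, adjusted p = 0.00194, limma), and it was lost without the second-run control array (adjusted p = 0.183) or the second-run 150 mM array (0.0678). STZ was the only called member of the ZAT and AZF list, of which 5 of 11 were measured, with a median slope of 0.188 (0.343% of all genes rose).

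DLAH and AT5G64870 encode proteins that act on or sit in membranes. DLAH, a DAD1-like acylhydrolase that acts on membrane lipids, measured 7.0 in control, 7.27 at 50 mM, 7.64 at 100 mM and 8.35 at 150 mM in the first run, and 6.91, 7.45, 7.52 and 8.43 in the second. Its runs lay close together, it rose at every step in both, and the 150 mM arrays lay above both controls. The change at 150 mM was 1.44 ± 0.14, or 2.7-fold (SE, adjusted p = 1.88e-06, limma), and the slope was 0.90 ± 0.09 per 100 mM (adjusted p = 1.99e-06, and 0.00298 without the block). AT5G64870, a flotillin-like protein of membrane microdomains, measured 2.15, 1.59, 2.20 and 3.29 from control to 150 mM in the first run and 1.83, 1.84, 2.43 and 2.99 in the second, with a slope of 0.81 ± 0.15 (SE, adjusted p = 0.00635). It dipped at 50 mM in the first run, and its call was lost without the second-run control array (adjusted p = 0.255) or the first-run 150 mM array (0.203).

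AT1G72900 and AT2G24600 rose chiefly between 100 and 150 mM in the first run. AT1G72900, a TIR-domain protein of the immune receptor class, measured 4.67, 5.22, 4.44 and 6.12 from control to 150 mM in the first run and 3.3, 4.40, 4.34 and 5.33 in the second. In both runs 100 mM lay below 50 mM and 150 mM was highest. The change at 150 mM was 1.74 ± 0.28 (SE, adjusted p = 0.00122, limma). AT2G24600, an ankyrin-repeat protein, measured 5.20, 5.0, 5.5 and 6.42 in the first run and 4.61, 4.81, 5.58 and 6.03 in the second, and its change at 150 mM was 1.32 ± 0.18 (SE, adjusted p = 0.000266). Its estimated change at 50 mM was 0.00, and it kept its call at 150 mM with any 1 array left out. PUB24, a U-box E3 ubiquitin ligase related to PUB22 and PUB23, had a slope of 0.57 ± 0.10 per 100 mM (SE, adjusted p = 0.00456) and was picked out after its values were seen. The listed PUB23 and PUB22 were not called, with slopes of 0.28 and 0.08, and EXO, the third measured member of the 22 listed early defence and signalling genes, had a slope of -0.50 and was not called either.

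AT1G35210 was the other named gene called without the block. It measured 2.76, 3.25, 3.73 and 4.79 from control to 150 mM in the first run, and 2.79, 2.96, 3.56 and 4.27 in the second. It rose at every step in both runs, and its controls differed by little between runs. The change at 150 mM was 1.75 ± 0.25, or 3.38-fold (SE, adjusted p = 0.000378, limma), and the slope was 1.16 ± 0.16 per 100 mM (adjusted p = 0.000212, and 0.0392 without the block).

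The next steepest rise after AT3G29000 was that of AT1G59865. It measured 4.80, 5.43, 5.70 and 6.95 from control to 150 mM in the first run and 2.90, 2.63, 3.66 and 5.11 in the second. The controls of the runs were nearly as far apart as 150 mM and control, and the change at 150 mM was 2.18 ± 0.43 (SE, adjusted p = 0.0136, limma). Its slope call was lost without the second-run control array (adjusted p = 0.164), the first-run 150 mM array (0.132) or the second-run 150 mM array (0.0627). AT4G36500 measured 4.64, 4.58, 5.14 and 5.96 in the first run and 2.67, 3.42, 3.37 and 4.43 in the second. Its slope was 0.97 ± 0.14 (SE, adjusted p = 0.000327) and held with any 1 array left out, although its second-run 150 mM array lay below its first-run control.

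**Figure D2:**
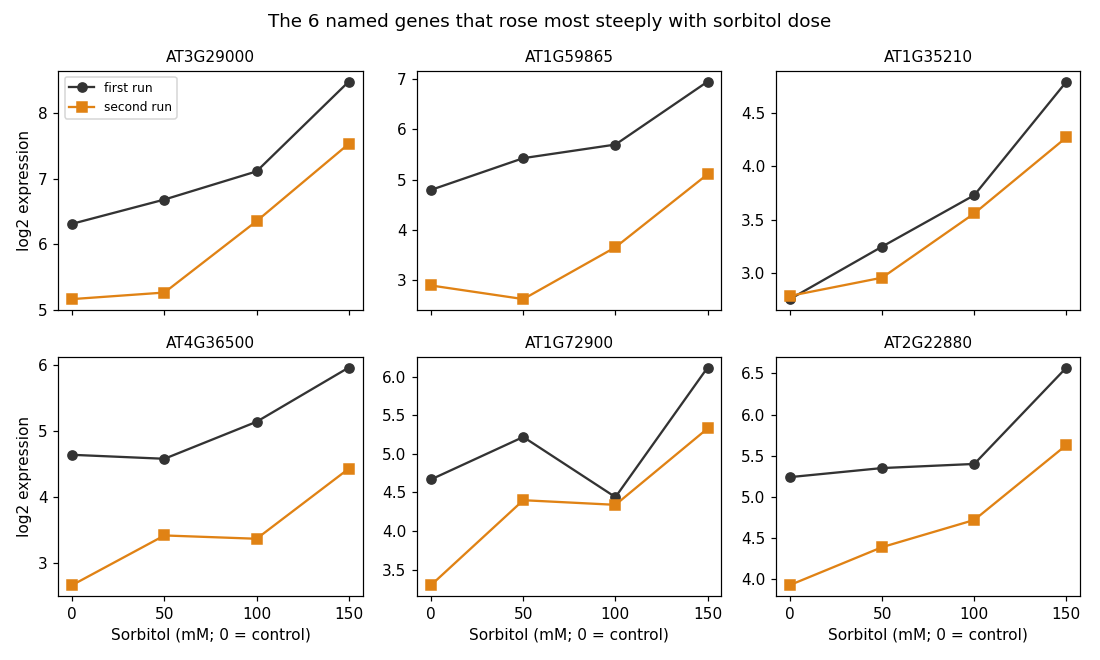
log2 expression against sorbitol dose in mM, with the control at 0, for the 6 named genes with the steepest called rise; each line is 1 run and each point 1 array. The 150 mM point is the highest of its run in all 12 lines, and the lines of AT3G29000, AT1G35210 and AT2G22880 go up at every step in both runs.

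The remaining genes of the 15 steepest rises had slopes of 0.76 to 0.93 per 100 mM. AT1G07135, a glycine-rich protein, measured 6.73, 6.12, 7.11 and 7.78 from control to 150 mM in the first run and 5.49, 5.56, 6.31 and 6.95 in the second, with a change at 150 mM of 1.25 ± 0.20 (SE, adjusted p = 0.00103, limma). AR781, a protein with a domain of unknown function, measured 6.90, 7.24, 7.38 and 7.95 in the first run and 5.99, 6.45, 6.91 and 7.72 in the second. It rose at every step in both runs, with a slope of 0.89 ± 0.15 (SE, adjusted p = 0.00194). AT3G02840, an armadillo-repeat protein, measured 4.48, 4.64, 5.48 and 5.76 in the first run and 4.44, 4.81, 5.05 and 5.34 in the second. AT2G39650 measured 6.04, 6.32, 6.50 and 7.33 in the first run and 6.03, 6.05, 6.34 and 7.11 in the second. Both rose at every step in both runs, with slopes of 0.76 ± 0.14 (SE, adjusted p = 0.006) and 0.76 ± 0.12 (SE, adjusted p = 0.000711). AT1G05575 had a slope of 0.85 ± 0.17 (SE, adjusted p = 0.0131), and AT5G05300 one of 0.82 ± 0.16 (SE, adjusted p = 0.0104). Of these 6 genes AT1G07135 kept its slope call with any 1 array left out, and the others lost it without at least 1 of the control or 150 mM arrays. AT5G40000, an AAA-type ATPase picked out after its values were seen, rose by 0.73 ± 0.14 per 100 mM (SE, adjusted p = 0.00725). The calls of AT5G40000, AT4G27280 and PUB24 were not refitted with an array left out.

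The steepest called fall was that of AT1G76240, a protein of unknown function. It measured 7.38 in control, 6.29 at 50 mM, 6.12 at 100 mM and 6.16 at 150 mM in the first run, and 6.94, 6.00, 5.42 and 5.17 in the second. All 6 sorbitol arrays lay below both control arrays. The change was -1.01 at 50 mM (adjusted p = 0.2, limma), -1.39 at 100 mM (adjusted p = 0.0026) and -1.50 ± 0.19 at 150 mM (SE, adjusted p = 0.000168), and the slope was -0.97 ± 0.12 per 100 mM (adjusted p = 6.79e-05). The slope and the change at 150 mM stayed called with any 1 array left out.

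The next falls had shallower slopes. AT1G28570, a lipase of the GDSL family, measured 4.32, 3.52, 3.07 and 2.76 from control to 150 mM in the first run and 3.48, 3.82, 3.31 and 2.73 in the second, with a slope of -0.79 ± 0.18 per 100 mM (SE, adjusted p = 0.0389, limma). AT1G55430, a cysteine- and histidine-rich protein, measured 5.11, 4.48, 4.46 and 3.75 in the first run and 5.24, 4.72, 4.23 and 4.18 in the second, with a slope of -0.78 ± 0.16 (SE, adjusted p = 0.0149). It fell at every step in both runs, whereas AT1G28570 was above its control at 50 mM in the second run. AT2G30890, a cytochrome b561 family protein of the class that carries electrons across membranes, measured 4.2, 3.86, 3.83 and 3.09 in the first run and 4.35, 3.65, 4.08 and 3.06 in the second, with a change at 150 mM of -1.20 ± 0.22 (SE, adjusted p = 0.00662). AT4G35320 and AT1G49470 had slopes of -0.64 ± 0.12 and -0.61 ± 0.11 (SE, adjusted p = 0.0114 and 0.00699). Each of these 5 slope calls was lost without the second-run control array and without at least 1 other array.

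**Figure D3:**
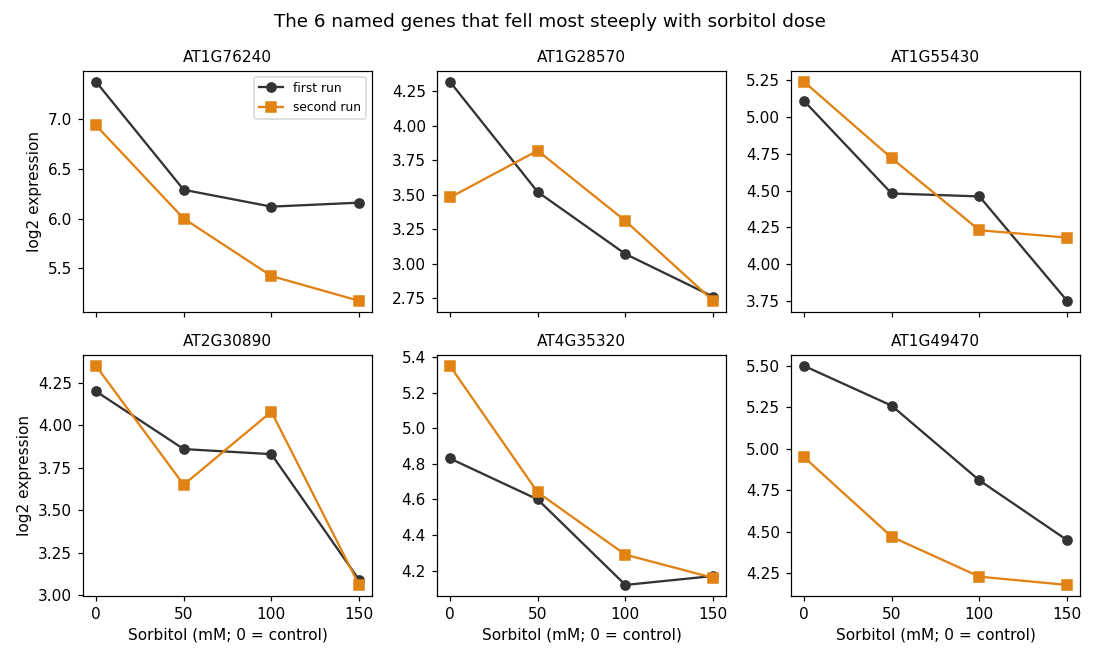
log2 expression against sorbitol dose in mM, with the control at 0, for the 6 named genes with the steepest called fall; each line is 1 run and each point 1 array. AT1G76240 drops most between the control and 50 mM, by -1.01 on average, while AT1G55430 goes down at every step in both runs.

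AT2G47440, a tetratricopeptide-repeat protein, measured 5.54, 5.16, 4.81 and 4.66 from control to 150 mM in the first run and 5.89, 5.63, 5.43 and 4.97 in the second. It fell at every step in both runs, by 0.59 ± 0.11 per 100 mM (SE, adjusted p = 0.00747, limma). IQD19, a calmodulin-binding IQ-domain protein of a family that associates with microtubules, measured 6.61, 6.14, 5.96 and 5.92 in the first run and 6.49, 5.68, 5.59 and 5.42 in the second, a fall of 0.55 ± 0.10 per 100 mM (SE, adjusted p = 0.00275). All 6 sorbitol arrays of IQD19 lay below both controls. It was the only called member of the IQD list, of which 11 of 25 were measured, 7 with a positive slope, and the median slope was 0.009 (0.134% of all genes fell). AT2G17300, AT3G06435, AT5G19190 and AT4G25250 completed the 12 steepest falls with slopes of -0.59 to -0.54.

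The average of the 3 doses against control was higher for 17 genes and lower for 22 (0.138% of all genes, or 0.0601% and 0.0778%), 8 and 10 of them named. The median change of the 22 lower genes was -0.61 at 50 mM, -0.64 at 100 mM and -0.74 at 150 mM, and that of the 17 higher genes was 0.50, 0.60 and 1.17. Of these genes 14 of the 22 and 15 of the 17 also had a called slope. Because the average sets 6 sorbitol arrays against the same 2 controls, the level of those controls enters every dose. Without the second-run control array the limma count for the average was 0 (21 to 33 without any other 1 of the 8 arrays), and without the block also 0, where 897 genes had an unadjusted p under 0.05. After centring each array on its median the split was 23 higher and 19 lower, and after quantile normalisation 26 and 16.

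THE1, PRA1.B6, AT1G23030 and BZIP61 were lower on average. THE1, a receptor kinase that monitors the state of the cell wall, measured 6.96 in control, 6.31 at 50 mM, 6.35 at 100 mM and 6.40 at 150 mM in the first run, and 6.77, 6.18, 6.13 and 6.16 in the second. Every sorbitol array lay below both controls with no further step between doses, and the average change was -0.61 ± 0.13 (SE, adjusted p = 0.0434, limma), a call lost on leaving out any 1 of the 8 arrays. PRA1.B6, a prenylated Rab acceptor protein of vesicle traffic, measured 7.08, 6.41, 6.53 and 6.70 in the first run and 7.26, 6.67, 6.58 and 6.39 in the second, with an average change of -0.62 ± 0.11 (SE, adjusted p = 0.0103). AT1G23030, a U-box and armadillo-repeat E3 ligase, measured 5.60, 4.97, 4.97 and 4.88 in the first run and 5.93, 5.23, 5.14 and 5.30 in the second. Its average change was -0.68 ± 0.13 (SE, adjusted p = 0.0244). BZIP61, a bZIP transcription factor, measured 8.35, 7.85, 7.71 and 7.67 in the first run and 7.83, 7.38, 7.48 and 7.25 in the second, with an average change of -0.53 ± 0.09 (SE, adjusted p = 0.00721). Within each run all doses of these 4 genes lay below the control.

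The average was called for 2 genes of the pectin methylesterase inhibitor family, whose products restrain the enzymes that de-esterify wall pectin, and they moved in opposite directions. AT1G62770 measured 5.18, 5.76, 5.73 and 5.51 from control to 150 mM in the first run and 4.70, 5.26, 5.35 and 5.45 in the second, an average change of 0.57 ± 0.12 (SE, adjusted p = 0.049, limma). AT4G25250 measured 5.21, 4.58, 4.49 and 4.22 in the first run and 6.02, 5.42, 5.44 and 5.24 in the second, an average change of -0.72 (adjusted p = 0.0329). Both calls were lost in 7 of 8 cases with 1 array left out (adjusted p up to 0.599 for AT1G62770 and 0.354 for AT4G25250). The other named genes called higher on average were AT3G29000, AT1G35210, DLAH, AT4G18250 and AGL79, with AT5G18470, a mannose-binding lectin family protein, at 0.67 (adjusted p = 0.0441), and AT5G46710, a PLATZ transcription factor, at 0.63 (adjusted p = 0.046). The last 2 calls were lost in 6 of 8 cases with 1 array left out. The average of AT5G18470 was 0.29 without the second-run control array (adjusted p = 0.741) and 1.05 without the first-run one, and that of AT5G46710 was 0.41 without the second-run control array (adjusted p = 0.665). The other named genes called lower were AT1G76240, IQD19, AT4G35320, AT5G19190 and AT1G55700, a cysteine- and histidine-rich protein.

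The 97 genes with a called positive slope had a median change of 0.20 at 50 mM, 0.41 at 100 mM and 0.90 at 150 mM, and 34 of them were over 2-fold at 150 mM. The 38 genes with a called negative slope had a median change of -0.42, -0.61 and -0.85, and 5 were over 2-fold. These medians describe genes picked for their slope and carry no test. The direct test of a difference between the last and the first step in dose gave 0 calls with limma (0% of all genes; 1715 had an unadjusted p under 0.05), so a bend in the dose curve was not shown for any gene. Of the 97 genes, 26 rose at every step in both runs, and of the 38, 15 fell at every step in both. Over all 28285 genes 93 rose (0.329%) and 92 fell (0.325%) in that way. The 97 and 38 genes were picked on these same arrays, which favours such an order, so these counts carry no test either.

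A comparison of 150 with 50 mM uses no control array. It called 41 genes higher and 1 lower (0.148% of all genes, or 0.145% and 0.00354%), and 34 of the 41 were also among the 97 with a called positive slope. AT3G29000 was higher at 150 mM by 2.04 ± 0.17 (SE, adjusted p = 8.71e-08, limma) and AT1G07135 by 1.52 ± 0.20 (SE, adjusted p = 0.00039), and both kept the call with any 1 of the 4 arrays left out. AT5G09876 was higher by 1.58 ± 0.32 (SE, adjusted p = 0.0291), AT1G35210 by 1.43 (adjusted p = 0.00785) and AT5G64870 by 1.43 (adjusted p = 0.0047). The 6 sorbitol arrays of AT5G09876 measured 1.50 to 4.08, below the median control level of all genes (4.21). AT4G32090, the gene called lower, measured 2.57 in control, 3.55 at 50 mM, 3.41 at 100 mM and 2.07 at 150 mM in the first run and 2.99, 4.04, 3.97 and 2.74 in the second. It lay above the control at 50 and 100 mM and below it at 150 mM in both runs, and its difference of 150 from 50 mM was -1.39 ± 0.29 (SE, adjusted p = 0.0416). The calls of AT5G09876 and AT4G32090 were lost on leaving out any 1 of the 4 arrays (adjusted p up to 0.453 and 0.422), and those of AT1G35210 and AT5G64870 in 3 of 4 cases. Leaving out any 1 of the 4 arrays left 10 to 23 genes called, 10 without the second-run 50 mM array. Without the block this limma comparison gave 0 calls, and 570 genes had an unadjusted p under 0.05.

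Between neighbouring doses, in comparisons added after the data had been seen, 100 mM differed from 50 mM in 0 genes (0%, with 1282 at an unadjusted p under 0.05, limma). Between 150 and 100 mM 1 gene was called (0.00354%), AT3G29000, which was higher at 150 mM by 1.27 (adjusted p = 0.0013).

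The runs were compared gene by gene at 150 mM, since each run has its own control array. All 91 genes called higher at 150 mM were above the control in both runs, with a median change of 0.85 in the first run and 1.02 in the second, and all 39 called lower were below it in both, with medians of -0.83 and -0.77. Genes are called from the mean of both runs, so a shared direction is largely given by the call. Over all genes 26.6% were higher and 25.8% lower in both runs, and the 150 mM changes of the runs correlated at 0.133 across genes, which share arrays and are no independent replicates. Both 150 mM arrays lay above both controls for 69 of the 91 genes (13.5% of all genes) and below both for 31 of the 39 (9.7% of all genes). The call on these same arrays favours this separation too. A difference of the slope between runs was called by limma for 0 genes (0%, with 1892 at an unadjusted p under 0.05).

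**Figure D4:**
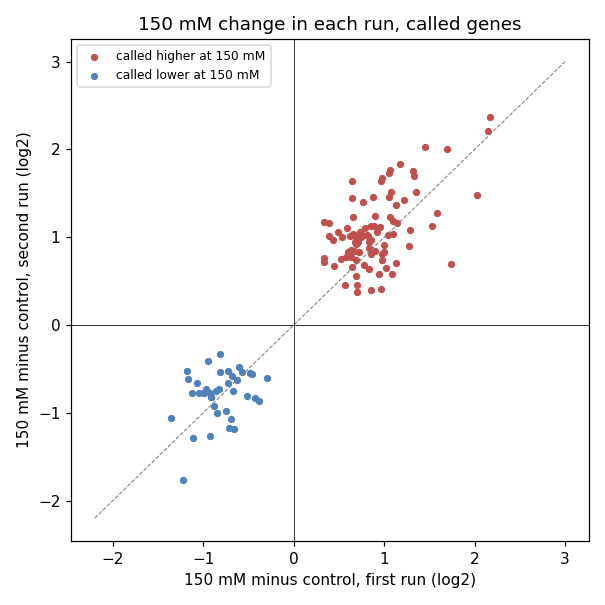
Change at 150 mM sorbitol against the control of the same run, in log2 units, in the first run (horizontal axis) and the second run (vertical axis), for the genes called higher (91, red) and lower (39, blue). All red points lie above 0 on both axes and all blue points below 0 on both.

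Genes chosen in 1 run were then read in the other, a check added after the data had been seen. The 50 genes that rose most at 150 mM in the second run, by a median of 1.46, had a median change of 0.71 in the first run, and 43 of the 50 were higher there (51.9% of all genes were higher in that run). In the reverse reading, the 50 genes that rose most in the first run, by a median of 1.48, had a median of -0.02 in the second, and 25 of them were higher there (47.4% of all genes were). Set against 50 mM in place of control, the 50 largest rises of the first run had a median of 0.86 in the second, 44 of them higher (47.6% of all genes), and the 50 of the second run had a median of 0.71 in the first, 34 higher (49.8% of all genes). For the largest falls at 150 mM against the control, 35 genes chosen in the first run and 28 chosen in the second had the same sign in the other run, with medians of -0.20 and -0.16 there, while 51.1% and 46.7% of all genes were lower in that other run.

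Lists of genes tied to osmotic stress, hormones and the wall were counted for the slope. Of 334 genes on 24 lists 73 were measured under their own name. For 6 lists, among them the 18 aquaporins, the 20 jasmonate genes and the 9 genes of compatible solute metabolism, this number was 0. Probe sets that list no gene or several were tested but could not be matched to a list. Of 26 abscisic acid and dehydration genes 4 were measured and 0 called, with slopes of 0.20 for COR15A, 0.15 for KIN2, 0.01 for KIN1 and -0.08 for COR47. Over the control and sorbitol arrays COR15A measured 0.85 to 1.97, KIN1 1.41 to 2.40 and KIN2 1.57 to 3.13. All 3 lay below the median control level of all genes (4.21), and at such low levels a missing call does not show that they stayed unchanged. COR47, a dehydrin that protects cells during water loss, was abundant in every array, at 9.42, 9.25, 9.43 and 9.36 from control to 150 mM in the first run and 9.38, 9.28, 9.15 and 9.17 in the second. Its 50 and 150 mM arrays lay below both controls, while the 100 mM arrays lay on either side of them. DREB2C, the 1 measured member of 21 ERF and DREB factors, had a slope of -0.29 and was not called.

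Of 20 auxin response genes 7 were measured and 0 called, with a median slope of 0.061, and the ethylene signalling factor EIN3 had a slope of -0.12. Of 17 expansins, which loosen walls, 8 were measured and 0 called, with slopes of -0.15 to 0.09. Of 16 xyloglucan-modifying XTH genes 5 were measured and 0 called. Their slopes were all negative, with -0.39 for XTH21 (adjusted p = 0.109, limma), -0.20 for XTH18 and -0.09 for XTH26. The 3 measured osmotic and mechanical sensors had slopes of -0.35 for THE1 (adjusted p = 0.145), -0.12 for the receptor kinase FER and -0.04 for AT2G48060, and 0 of them were called. AT2G18480 and AT5G51970, the measured members of the polyol transport and sorbitol oxidation list, had slopes of 0.05 and -0.07. The heat shock gene ATHSP22.0 and the clock gene GI, listed as signs of handling and of sampling time, had slopes of 0.01 and 0.02 and were not called. They were the only measured members of lists of 9 and 10 genes. ATHSP22.0 measured 1.18 to 1.61 over the control and sorbitol arrays, below the median control level of all genes (4.21).

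Sorbitol was also set against ethylene glycol at the matched doses of 50, 100 and 150 mM. Ethylene glycol is a small diol that enters cells quickly, so that it lowers the osmotic potential of the solution with little lasting loss of turgor. On average over the 3 doses 40 genes were higher with sorbitol and 49 lower (0.315% of all genes, or 0.141% and 0.173%). After quantile normalisation the counts were 27 and 21, after centring on the array median 58 and 27, and without the block 1 gene, AT3G11385, while 1796 had an unadjusted p under 0.05. The balance of higher against lower genes thus turned with the scaling. Leaving out any 1 of the 12 arrays gave 14 to 50 called genes, the lowest without the first-run 150 mM ethylene glycol array, except that 134 were called without the second-run 150 mM sorbitol array.

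AT3G11385 measured 4.19 to 4.70 over the 6 sorbitol arrays, with a median of 4.41, and 5.21 to 5.63 over the 6 ethylene glycol arrays, with a median of 5.36. The solutes did not overlap, and the controls lay at 5.07 and 5.04. The difference of sorbitol from ethylene glycol was -0.95 ± 0.11 (SE, adjusted p = 0.000178, limma, and 0.0391 without the block). AT1G76240, which fell most steeply with sorbitol dose, had a median of 6.06 with sorbitol and 6.67 with ethylene glycol, a difference of -0.79 ± 0.11 (SE, adjusted p = 0.000714). AT5G19190 had a median of 3.92 with sorbitol and 4.77 with ethylene glycol, a difference of -0.78 ± 0.11 (SE, adjusted p = 0.000492). For these 3 genes sorbitol was lower in all 6 pairs of the same dose and run, and the call held with any 1 of the 12 arrays left out.

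The protein kinase gene WAG2, known from polar auxin transport, went the other way. It measured 4.57 to 4.91 over the sorbitol arrays, with a median of 4.74, and 3.76 to 4.29 over the ethylene glycol arrays, with a median of 4.00, while the controls lay at 4.32 and 4.14. The ranges did not overlap, and the difference was 0.71 ± 0.13 (SE, adjusted p = 0.0151, limma). It was lost in 4 of the 12 cases with 1 array left out (adjusted p = 0.0514 to 0.077). The change of WAG2 against the control, averaged over the sorbitol doses, was 0.51 and was not called (adjusted p = 0.361). AT3G06070 had a median of 3.82 with sorbitol and 4.58 with ethylene glycol, again with no overlap, and a difference of -0.78 ± 0.14 (SE, adjusted p = 0.0151).

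**Figure D5:**
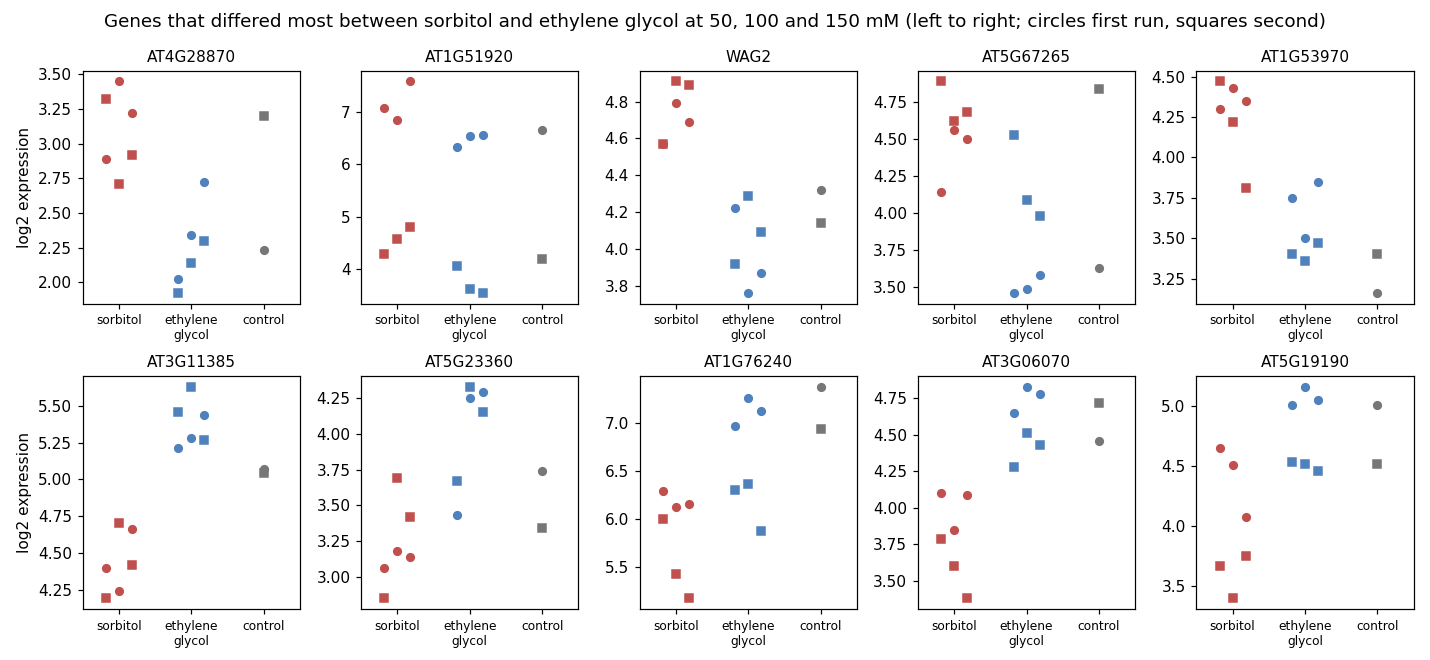
log2 expression of the 10 named genes with the largest called difference between sorbitol (red) and ethylene glycol (blue), with the control arrays in grey; each point is 1 array, circles are the first run and squares the second, and doses of 50, 100 and 150 mM run left to right. AT3G11385, AT3G06070 and WAG2 show no overlap between the solutes, and the control arrays of AT3G11385 lie at 5.07 and 5.04, above all its sorbitol arrays.

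Against NaCl at equal nominal osmolarity, with 25, 50 and 75 mM NaCl set against 50, 100 and 150 mM sorbitol, the limma count was 0 (0% of all genes; 1736 had an unadjusted p under 0.05). A p-value that misses the threshold does not show that the solutes act alike. In an alternative without the block the count was also 0 and 557 genes had an unadjusted p under 0.05, while the other alternatives called up to 7.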

How the data were processed

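Per the labels' protocols, biotin-labelled cDNA from total root RNA was read on Affymetrix arrays, 1 sample to an array. The authors deposited 1 normalised expression value, read here as log2 from its range of 0.2 to 12.45, for 28477 probe sets on each of 32 arrays. Per the submitters' processing notes, these came from GCRMA, which corrects background and summarises probes, with the Transcriptome Analysis Console and Affymetrix Expression Console, versions unstated. Neither the log base nor any scaling between arrays is stated in the sources used here, so folds rest on base 2. Array medians lay between 4.11 and 4.24.

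In the array annotation 16746 probe sets list 1 gene, 758 several and 10973 none, and 16601 of the first kind matched RefSeq (TAIR10.1, names only). Of probe sets for the same gene the brightest was kept, which set 192 aside and left 28285 genes, 11731 of them unnamed. Each unnamed one is a probe set that lists no gene or several, counted here as 1 gene. Of all probe sets 528 hold values identical to another.

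limma 3.58.1 in R 4.3.3 fitted all 32 arrays with 1 mean for each of 16 groups, the run as a block, a variance trend and Benjamini-Hochberg adjustment at 0.05, with 15 residual degrees of freedom. The code was tested on simulated data. The pairing comes from the title numbers: in all 6 pairs of the sorbitol and control groups, same-run arrays deviated together from their group means (correlation 0.641 to 0.681), and the block lowered the median residual SD to 0.19, against 0.272 without it. With 2 runs, deviations within a group mirror each other, so this shows a shared run difference over genes.

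Genes were named by rule: probe sets of 1 gene, the 15 steepest called rises and 12 falls of the slope, the 12 largest rises and 10 falls at 150 mM, all called at 50 and 100 mM and on average, the 5 largest in each direction otherwise, and up to 3 members per list. AT4G27280, AT5G40000, PUB24, CML38, KIN1 and WRKY6 fall outside this rule and were added after their values were seen. Groups, comparisons and gene lists were chosen with earlier results of these data known. No sequences were used.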

Additional observations from a re-analysis of the deposited data

Results flagged for a closer look

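The 10 genes with the largest called differences between sorbitol and ethylene glycol at 50, 100 and 150 mM stood out because a direct limma test between the solutes called them. In each gene all 6 pairs of the same dose and run had the same direction. These pairs are the arrays of the test itself, so their shared direction is largely given by the call. Higher with sorbitol were AT4G28870 by 0.84 (adjusted p = 0.0287), AT1G51920 by 0.75 (0.0235), WAG2 by 0.71 (0.0151), AT5G67265 by 0.71 (0.0287) and AT1G53970 by 0.71 (0.0325), in log2 units. AT4G28870 had a median of 3.07 with sorbitol and 2.22 with ethylene glycol, and AT1G53970 of 4.32 and 3.49. AT1G51920 ranged from 4.28 to 7.59 with sorbitol and from 3.53 to 6.57 with ethylene glycol, and its controls lay at 6.65 and 4.19, so its runs differed by more than the solutes. Of these 5, only WAG2 showed no overlap between the solutes.

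Lower with sorbitol were AT3G11385 (-0.95, adjusted p = 0.000178), AT5G23360 (-0.80, 0.0151), a GRAM-domain protein, AT1G76240 (-0.79, 0.000714), AT3G06070 (-0.78, 0.0151) and AT5G19190 (-0.78, 0.000492). AT3G11385 and AT3G06070 showed no overlap between the solutes. Of the 10 genes, only AT1G76240 and AT5G19190 were also called for the sorbitol average against control. Leaving out 1 of the 12 arrays ended the call in 10 cases for AT5G67265 and AT1G53970, in 9 for AT4G28870, in 7 for AT1G51920, in 6 for AT5G23360, in 4 for WAG2 and in 3 for AT3G06070. After quantile normalisation AT4G28870 had an adjusted p of 0.0647.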

How the results depend on the processing

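The run block decided most calls. Without the replicate block limma called 0 genes at 50 mM, 0 at 100 mM, 3 at 150 mM, 0 for the average, 3 for the slope, 0 for 150 against 50 mM and 1 against ethylene glycol. With the compared groups fitted alone it called 0, 0 and 3 genes at the 3 doses and 0 for 150 against 50 mM. In that setting it called 57 for the average and 151 for the slope, against 39 and 135 in the main fit. There it also called 1 for the difference between the last and first step, 1 for the slope between runs, 178 against ethylene glycol and 3 against NaCl. After quantile normalisation it called 48 against ethylene glycol and 7 against NaCl, and after median centring 6 against NaCl. Without the dimmest 25% of probe sets 4 genes were called against NaCl, and the other counts stayed within 1.5 times, as they did with identical probe sets counted once, an alternative chosen after seeing the data. The median change at 150 mM over all genes was -0.00695 after quantile normalisation and 0.02 after median centring, against 0.005 in the main fit. The slope over treated doses alone called 42 genes, and that of PRA1.B6 turned to 0.005. With 3 evenly spaced doses this slope is the same comparison as 150 against 50 mM, so it is no separate check. Leaving out 1 array gave 0 to 0 genes at 50 mM, 0 to 5 at 100 mM, 23 to 88 at 150 mM, 0 to 33 for the average, 30 to 115 for the slope, 10 to 23 for 150 against 50 mM, 0 to 3 for the last against the first step, 0 to 0 for the slope between runs, 14 to 134 against ethylene glycol and 0 to 4 against NaCl. A group left with 1 array was assumed to vary like the others. The cause of these shifts was not tested. Among the genes named by rule, AT3G29000, AT1G35210, AT4G36500, AT1G07135, AT2G24600, DLAH, AT4G18250 and AT1G76240 kept their slope call with any 1 array left out.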
